A study of Mus musculus with 6 samples.

Results

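A set of 30 genes that mark the nerve cells and glia of the gut wall was followed through a mouse colon series, out of 19949 listed genes and unnamed entries. They were taken by name from a list: 13 pan-neuronal genes, 9 genes for transmitters, peptides and subtype markers, 4 receptor genes and 4 glial genes. The receptor genes are Ret, Gfra1, Gfra2 and Ednrb, grouped in the figures as growth factor receptors. Reads were summed over each gene's RefSeq transcripts in 6 libraries. All 30 had reads, and 28 had enough to be tested.

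The study compared colon tissue of STAT6-/- mice with that of wild-type (WT) mice, 3 libraries per genotype. STAT6 carries signals from the interleukin-4 and interleukin-13 receptors to the nucleus. All 6 samples were labelled BALB/c, and all mice were 6 to 8 weeks old and drank 3% dextran sulfate sodium (DSS), which injures the colonic epithelium, for 3 days. The labels do not say how the Stat6 allele was disrupted or whether replicates come from different animals. The p-values therefore refer to the spread among these samples alone, which may be technical. Per the labels' protocol the gut was rinsed, scraped on its luminal face and cut into pieces, and RNA was extracted from the pieces. Colons without DSS are not analysed here.

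The gut wall holds its own nervous system, arranged as a myenteric plexus between the muscle layers and a submucosal plexus beneath the mucosa. Its neurons drive peristalsis with acetylcholine and tachykinins and relax the muscle with nitric oxide and vasoactive intestinal peptide. They arise from neural crest cells whose survival and migration depend on RET and on the endothelin receptor EDNRB. Enteric glia surround the neurons and extend into the mucosa, carry SOX10, S100B and, in some states, GFAP, and are known to raise GFAP in inflamed gut.

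Library depth ran from 17122315 to 19555450 expected counts, the estimated read numbers of the deposited tables. Stat6 stood at 38.5 to 53.2 CPM (expected counts per library size, TMM-adjusted) in STAT6-/- and at 88.8 to 104 CPM in WT, a fall by 1.01 on the log2 scale (SE 0.16; edgeR's quasi-likelihood test, adjusted p = 0.0134). Xist stood at 352 to 545 CPM in every WT library and at 0.265 to 0.992 CPM in every STAT6-/- library, and Ddx3y, on the Y chromosome, at 50.9 to 59.5 CPM in STAT6-/- and at most 0.124 CPM in WT. Genotype and sex therefore cannot be told apart in any comparison given here. Among STAT6-/- libraries, replicate 2 stood lowest for 22 of the 28 tested neuron and glia genes (78.6%, against 33.4% of all tested genes). It was also the lowest of the 3 for all 10 macrophage markers, all 8 endothelial markers and 8 of 9 fibroblast markers. Replicate 3 stood highest of the 3 for 23 of the 28 genes, against 5231 of 15066 tested genes. Summed over the pan-neuronal members other than L1cam, replicate 2 stood at 39.6 CPM, within the WT range of 39.1 to 49.9 CPM. Epithelial and smooth muscle markers, which define the labelled tissue, were detected in all libraries, at a summed 27956 to 45284 CPM for 12 epithelial and 2858 to 13473 CPM for 13 muscle genes.

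In the STAT6-/- colons 5 of the 28 tested genes rose and 1 fell. The cell adhesion gene L1cam, the neuronal nitric oxide synthase gene Nos1, the peptide gene Gal, the receptor gene Ret and the glial filament gene Gfap were higher, by 2.26-fold to 6.00-fold, while the glial calcium-binding protein gene S100b was 3.28-fold lower. The shares were 17.9% higher and 3.57% lower, beside 11.4% higher and 11.5% lower (22.9% in all) of 15066 genes tested (edgeR, adjusted p below 0.05). These 6 genes were also the only tested members whose 2 groups of libraries did not overlap, 5 upward against 22% of all tested genes and 1 downward against 24.5%. The other 22 tested members did not pass, and for 19 of them the 95% interval of the log2 fold change reached a 2-fold difference or more. Over the 28 tested members the median log2 fold change was 0.56, and 22 had a positive sign (78.6%, against 50.6% of all tested genes, whose median was 0.01). The members were chosen with earlier results of these data known. Most were lowest in the same STAT6-/- library, so their signs are not independent observations. Phox2a and Chat had too few reads to be tested. Bulk tissue does not tell apart fewer cells of a type and less RNA per cell.

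**Figure D1:**
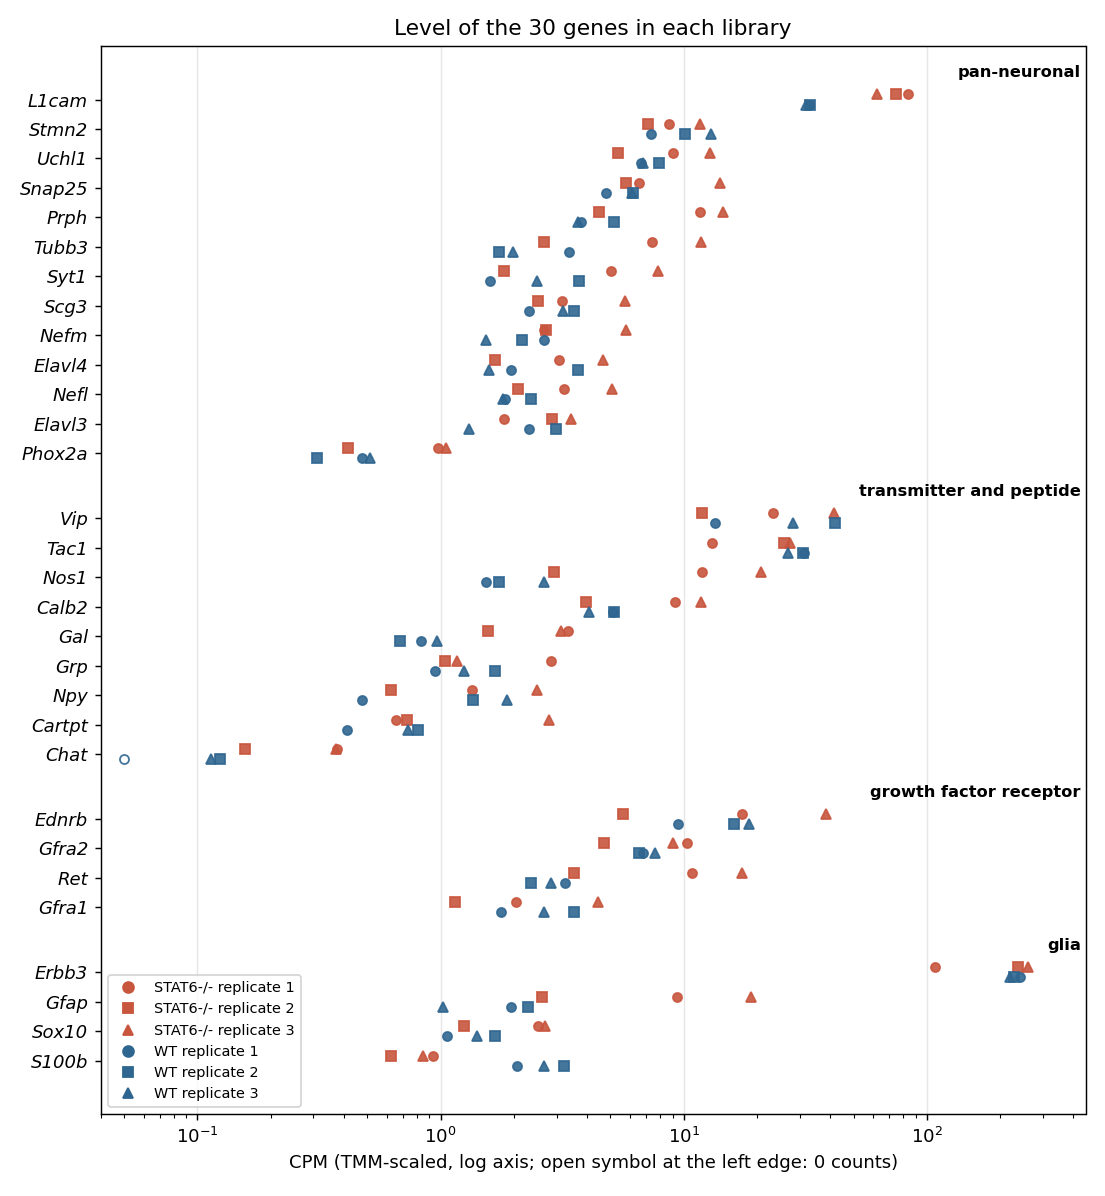
Level of each of the 30 genes in each library, in TMM-scaled CPM on a log axis, with STAT6-/- libraries in red and WT libraries in blue and 1 symbol per replicate. The groups part for L1cam, Nos1, Gal, Ret, Gfap and S100b among tested genes, and STAT6-/- replicate 2 (red square) lies within the WT range for Tubb3, Prph, Snap25 and Syt1.

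The calls depended on single libraries. Without STAT6-/- replicate 2, 9 members rose and 1 fell (33.9% of all genes passed). Without STAT6-/- replicate 1, STAT6-/- replicate 3 or WT replicate 1, L1cam rose, S100b fell and no other member passed, while 11.7%, 22.6% and 9.12% of all genes did. Without WT replicate 2 or WT replicate 3 no member passed by edgeR, although 6 and 5 were higher and 1 lower at an unadjusted p under 0.05. In those fits only 0.2% and 0.117% of all genes passed. With all 6 libraries DESeq2 called 7 members higher and 1 lower (34% of all genes passed) and limma-voom 2 and 1 (21.8%).

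**Figure D2:**
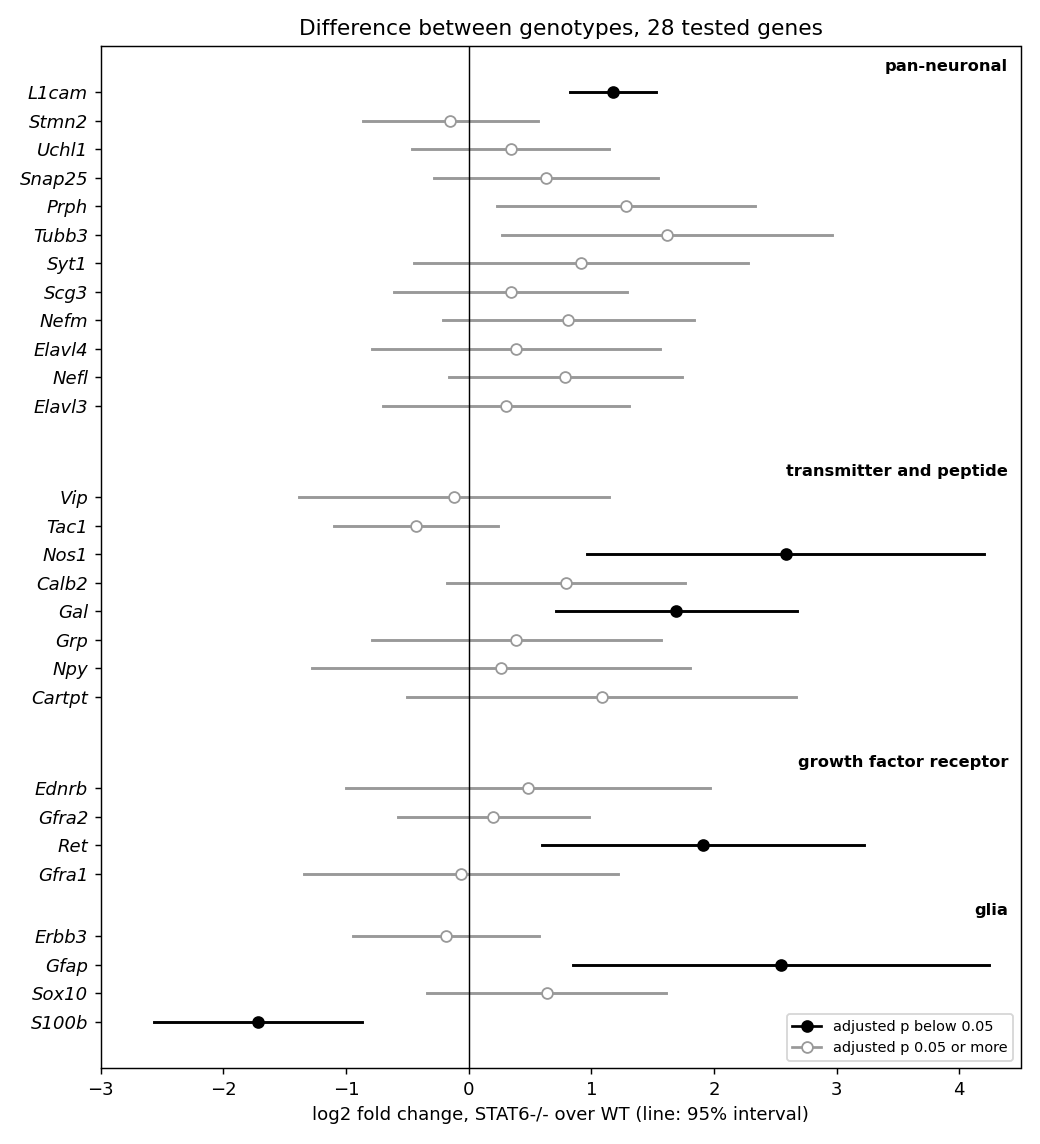
Log2 fold change of STAT6-/- over WT for the 28 tested genes, ordered by role and level, with 95% intervals from edgeR's fit. Filled points passed the test: L1cam, Nos1, Gal, Ret and Gfap to the right of 0 and S100b to the left.

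The stretches before the start sites of 3 of the called genes are shown for their matches to the letters that STAT proteins are known to bind: Gfap and L1cam, which rose and hold a match, and S100b, which fell and holds none. They were chosen after the matches were seen. Nos1 and Gal also rose and have no match in their windows, and Ret has no window in the table. The sequences are from RefSeq (GRCm38.p6, the assembly of mm10), 250 bases before to 20 bases after a start site, on the gene's strand, with each match in capitals. Gfap lies at chr11:102897181-102897450 (minus strand), L1cam at chrX:73880815-73881084 (minus strand) and S100b at chr10:76253586-76253855 (plus strand).
Gfap: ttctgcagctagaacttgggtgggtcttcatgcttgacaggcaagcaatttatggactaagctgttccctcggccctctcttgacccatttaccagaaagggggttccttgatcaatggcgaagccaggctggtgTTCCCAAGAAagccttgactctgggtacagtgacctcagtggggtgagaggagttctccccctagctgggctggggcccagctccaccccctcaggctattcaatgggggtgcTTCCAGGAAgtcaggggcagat
L1cam: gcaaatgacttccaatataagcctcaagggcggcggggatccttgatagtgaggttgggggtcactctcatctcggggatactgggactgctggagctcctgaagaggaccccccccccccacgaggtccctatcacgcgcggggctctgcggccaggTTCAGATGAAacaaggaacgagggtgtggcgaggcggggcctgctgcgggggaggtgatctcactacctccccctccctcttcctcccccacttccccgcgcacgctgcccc
S100b: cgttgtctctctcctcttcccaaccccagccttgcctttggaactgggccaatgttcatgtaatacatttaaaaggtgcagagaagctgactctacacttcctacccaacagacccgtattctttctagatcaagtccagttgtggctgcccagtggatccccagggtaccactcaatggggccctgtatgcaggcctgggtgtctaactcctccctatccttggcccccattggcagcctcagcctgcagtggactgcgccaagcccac

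The Gfap stretch holds a TTC and a GAA with 4 bases between them, starting 115 bases before the start site, and a TTCNNNGAA match, with 3 bases between, that starts 2 bases before it. L1cam holds the form with 4 bases between, starting 92 bases before the start site used here. Among the 20 members with a window in the RefSeq table (250 bases before to 50 after a start site, both strands searched), these 2 were the only ones with the form of 4, and Gfap the only one with the form of 3. The shares were 10% and 5%, beside 8.01% and 9.55% of 27025 genes. Matches to the 2 forms can overlap in part. The SOX letters ACAAAG were found in Scg3 and Syt1 (10% of members, 21.02% of all genes). The PHOX2 site and the RE1 element's left and right parts, TTCAGCACC and GACAGCGCC, were in none of the 20 members and in 0.56%, 0.43% and 0.39% of all genes. A match describes the letters only.

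Among the pan-neuronal genes L1cam changed. It encodes a surface protein that nerve fibres use to adhere and grow, lies on the X chromosome (73853778 to 73880838, mm10) and is also known outside nerve cells. Its level was 84.1, 74.6 and 62.4 CPM in STAT6-/- replicates 1, 2 and 3 and 32.6, 33.2 and 31.8 CPM in WT replicates 1, 2 and 3. Every STAT6-/- library was above every WT library, and the SD of the WT libraries was 0.690 CPM. The log2 fold change was 1.18 ± 0.15 (SE; edgeR adjusted p = 0.00965) and ran from 1.11 to 1.33 with any 1 library left out. Without WT replicate 2 and WT replicate 3 the adjusted p was 0.0641 and 0.0682. Unlike most other members, L1cam was not lowest in replicate 2 among the STAT6-/- libraries.

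The remaining 11 tested pan-neuronal genes did not pass, with log2 fold changes from -0.15 to 1.62, and 10 of the 11 were positive. Tubb3, the neuronal beta-tubulin, came nearest in size at 7.42, 2.66 and 11.7 CPM in STAT6-/- and 3.37, 1.74 and 1.99 CPM in WT. STAT6-/- replicate 2 lay inside the WT range, and the log2 fold change was 1.62 ± 0.57 (edgeR adjusted p = 0.0793). Prph, the intermediate filament peripherin of peripheral neurons, stood at 11.7, 4.49 and 14.5 CPM against 3.79, 5.15 and 3.69 CPM. Its log2 fold change was 1.28 ± 0.45 (edgeR adjusted p = 0.0765). Both genes passed with DESeq2 (adjusted p = 0.0203 for Tubb3 and 0.0223 for Prph) and without STAT6-/- replicate 2 (edgeR adjusted p = 0.0119 and 0.00672).

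The genes of the synapse and of the neurofilament overlapped between genotypes. Snap25, a subunit of the vesicle fusion machinery, stood at 6.58, 5.80 and 14.1 CPM in STAT6-/- and at 4.79, 6.20 and 6.13 CPM in WT. Syt1, the calcium sensor of that machinery, stood at 5.04, 1.83 and 7.88 CPM against 1.6, 3.72 and 2.50 CPM. For both, STAT6-/- replicate 3 was the highest of all 6 libraries and replicate 2 lay within the WT range. Nefl, the light neurofilament chain, stood at 3.22, 2.09 and 5.08 CPM against 1.83, 2.36 and 1.82 CPM. Nefm, the medium chain, stood at 2.66, 2.72 and 5.82 CPM against 2.66, 2.17 and 1.53 CPM. The log2 fold changes of Snap25, Syt1, Nefl and Nefm were 0.63, 0.92, 0.79 and 0.81, with edgeR adjusted p from 0.185 to 0.271.

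The RNA-binding protein genes Elavl3 and Elavl4, which mark all neurons, overlapped between genotypes. Elavl3 stood at 1.82, 2.87 and 3.44 CPM in STAT6-/- and 2.31, 2.98 and 1.30 CPM in WT. Elavl4 stood at 3.08, 1.67 and 4.65 CPM against 1.95, 3.66 and 1.59 CPM. Their log2 fold changes were 0.30 (95% interval -0.70 to 1.30) and 0.39 (-0.79 to 1.56). Uchl1, the ubiquitin hydrolase PGP9.5 used to stain enteric neurons, gave 9.01, 5.38 and 12.8 CPM against 6.68, 7.94 and 6.81 CPM, a log2 fold change of 0.34 (-0.46 to 1.14). Scg3, a secretory granule protein shared with endocrine cells, gave 3.17, 2.51 and 5.77 CPM against 2.31, 3.54 and 3.18 CPM. Stmn2, a microtubule regulator of growing axons, was the only tested pan-neuronal gene with a negative sign. It stood at 8.68, 7.15 and 11.6 CPM against 7.33, 10.1 and 13.0 CPM, a log2 fold change of -0.15 (-0.86 to 0.56). Phox2a, a transcription factor of autonomic neurons, had 21, 8 and 20 counts in STAT6-/- and 8, 5 and 9 in WT and was not tested.

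Of the transmitter and peptide genes, Nos1 and Gal rose and the 6 others tested did not pass. Nos1 (chromosome 5, 117866839 to 117958840), which makes nitric oxide in the inhibitory motor neurons of the gut, stood at 11.9, 2.92 and 20.9 CPM in STAT6-/- and 1.54, 1.74 and 2.67 CPM in WT. The groups did not overlap, but STAT6-/- replicate 2 exceeded the highest WT library by little, and the other 2 STAT6-/- libraries made up most of the difference. The log2 fold change of Nos1 was 2.58 ± 0.69 (edgeR adjusted p = 0.0380). It ran from 1.95 to 3.07 with 1 library left out, and the call held only without STAT6-/- replicate 2 among these 6 fits. The call was lost with limma-voom (adjusted p = 0.112) and with log2 FPKM plus 1 or plus 0.1 (0.0914 and 0.0692).

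Gal (chromosome 19, 3409915 to 3414544) encodes galanin, a peptide of submucosal and myenteric neurons that also acts on secretion. It stood at 3.36, 1.57 and 3.12 CPM in STAT6-/- and 0.828, 0.683 and 0.964 CPM in WT, from 30 to 72 counts against 11 to 17. All STAT6-/- libraries were above all WT libraries. The log2 fold change was 1.69 ± 0.42 (edgeR adjusted p = 0.0308) and ran from 1.53 to 1.99 with 1 library left out. Leaving out STAT6-/- replicate 1 or 3 or any WT replicate ended the call of Gal (edgeR adjusted p from 0.0564 to 0.126), while limma-voom and log2 FPKM kept it (0.0258 to 0.0444).

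The 2 most abundant peptide genes did not follow Nos1 and Gal. Vip, vasoactive intestinal peptide, is known to be made in many of the same inhibitory neurons as nitric oxide and in secretomotor neurons. It stood at 23.3, 11.9 and 41.6 CPM in STAT6-/- and 13.4, 41.9 and 28.2 CPM in WT. Each genotype spanned nearly the same range, and the log2 fold change was -0.12 (95% interval -1.38 to 1.14). Tac1, the precursor of substance P and neurokinin A in excitatory neurons and in some endocrine cells, stood at 13.1, 25.8 and 27.3 CPM against 31.4, 31.0 and 26.9 CPM. Its low STAT6-/- value was that of replicate 1, and the log2 fold change was -0.43 (-1.10 to 0.24). That Nos1 and Vip differ in their response was not tested.

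**Figure D3:**
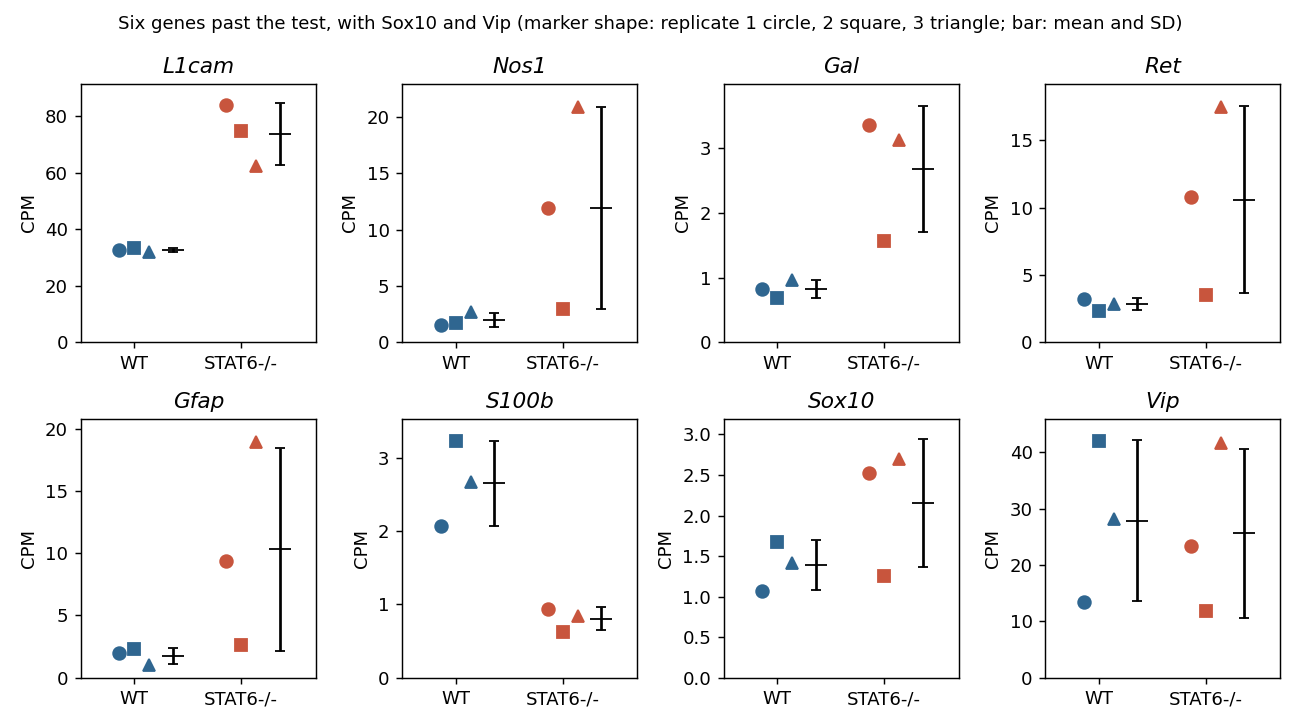
CPM in each library for the 6 genes that passed the test and for Sox10 and Vip, which did not, on linear axes that start at 0, with the mean and SD of 3 libraries beside the points. Nos1, Ret and Gfap are highest in STAT6-/- replicate 3 (20.9, 17.5 and 18.9 CPM) and near the WT range in replicate 2.

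The remaining peptide and subtype genes overlapped between genotypes or had too few reads. Calb2, the calcium-binding protein calretinin of excitatory neurons, stood at 9.19, 3.97 and 11.8 CPM in STAT6-/- and 5.15, 5.15 and 4.08 CPM in WT (log2 fold change 0.80, 95% interval -0.18 to 1.77). Npy, neuropeptide Y, stood at 1.35, 0.627 and 2.49 CPM against 0.473, 1.36 and 1.87 CPM. Cartpt, the precursor of the CART peptide, stood at 0.653, 0.731 and 2.80 CPM against 0.414, 0.807 and 0.737 CPM, so that 1 library carried its log2 fold change of 1.08. Grp, gastrin-releasing peptide, stood at 2.85, 1.04 and 1.16 CPM against 0.946, 1.68 and 1.25 CPM, again with 1 high library, here STAT6-/- replicate 1. Chat, which makes acetylcholine, had 8, 3 and 7 counts in STAT6-/- and 0, 2 and 2 in WT, at most 0.373 CPM. A count of 0 in WT replicate 1 allows up to 0.175 CPM before scaling (3 counts, counting error only).

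Ret was the receptor that changed. RET is the signalling subunit for the GDNF family of neurotrophic factors, which reach it through the co-receptors GFRA1 and GFRA2, and it is needed for the gut to be populated by neurons. Ret (chromosome 6, 118151748 to 118197744) stood at 10.8, 3.55 and 17.5 CPM in STAT6-/- and 3.25, 2.36 and 2.84 CPM in WT. All STAT6-/- libraries were above all WT libraries, replicate 2 by a small margin. The log2 fold change of Ret was 1.91 ± 0.56 (edgeR adjusted p = 0.0485) and ran from 1.39 to 2.34 with 1 library left out. The call was lost with upper quartile scaling (0.0526), limma-voom (0.120), log2 FPKM plus 1 (0.0962) or plus 0.1 (0.0843) and without any library but STAT6-/- replicate 2.

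Its co-receptors did not pass. Gfra1 stood at 2.05, 1.15 and 4.44 CPM in STAT6-/- and 1.77, 3.54 and 2.67 CPM in WT, a log2 fold change of -0.06 (95% interval -1.34 to 1.22). Gfra2 stood at 10.4, 4.70 and 9.05 CPM against 6.80, 6.58 and 7.60 CPM, a log2 fold change of 0.20 (-0.58 to 0.98). Ednrb, the endothelin receptor of neural crest cells, which other cells of the gut wall also carry, did not pass. It stood at 17.4, 5.64 and 38.6 CPM against 9.46, 16.1 and 18.5 CPM, so that the STAT6-/- libraries held both the lowest and the highest of the 6 values. Its log2 fold change was 0.48 (-1.0 to 1.97).

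The ligands and guidance genes around these receptors gave 2 higher and 1 lower of 18 tested, or 11.1% and 5.56%, beside 11.4% and 11.5% of all tested genes. Ece1, the protease that activates endothelins and a gene of many cell types, rose from 67.5 ± 12.2 CPM to 136 ± 22.3 CPM (mean ± SD, n = 3; log2 fold change 1.01, edgeR adjusted p = 0.0173). Nrg2, a neuregulin, rose from 0.339 ± 0.105 to 0.961 ± 0.0791 CPM (1.49, adjusted p = 0.0415). Sema3d, a secreted guidance protein, fell from 13.0 ± 3.80 to 4.76 ± 2.05 CPM (-1.45, adjusted p = 0.0447). Gdnf, the RET ligand that acts through GFRA1, stood at 1.91, 1.41 and 1.80 CPM in STAT6-/- and 3.73, 3.54 and 2.95 CPM in WT. The groups of Gdnf did not overlap, but its log2 fold change of -0.99 did not pass (edgeR adjusted p = 0.0557). Artn, another ligand of that list, parted upward at 2.43, 1.46 and 1.96 CPM in STAT6-/- and 0.946, 1.18 and 1.13 CPM in WT. Its log2 fold change of 0.84 did not pass either (edgeR adjusted p = 0.120). Of the 18 tested genes 4 parted upward and 4 downward, while 22% and 24.5% of all tested genes did. Bmp2, which had the highest CPM of that list over all 6 libraries but not in STAT6-/-, where Ece1 did, had a log2 fold change of -0.41 ± 0.51.

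The 4 glial genes went in different directions: Gfap rose, S100b fell, and Sox10 and Erbb3 did not pass. Gfap (chromosome 11, 102887336 to 102897200), the intermediate filament of enteric glia and astrocytes, stood at 9.38, 2.61 and 18.9 CPM in STAT6-/- and 1.95, 2.30 and 1.02 CPM in WT. The groups parted, with STAT6-/- replicate 2 just above the highest WT library and replicate 3 far above. The log2 fold change of Gfap was 2.55 ± 0.72 (edgeR adjusted p = 0.0445) and ran from 1.82 to 3.03 with 1 library left out. The call held only without STAT6-/- replicate 2 among these 6 fits, and was lost with limma-voom (0.112) and with log2 FPKM plus 1 or plus 0.1 (0.0794 and 0.0634).

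S100b (chromosome 10, 76253836 to 76261319) encodes a calcium-binding protein of glia that fat cells are also known to make. It stood at 0.933, 0.627 and 0.846 CPM in STAT6-/- and 2.07, 3.23 and 2.67 CPM in WT, from 12 to 20 counts against 35 to 52. All STAT6-/- libraries were below all WT libraries. The log2 fold change of S100b was -1.72 ± 0.36 (edgeR adjusted p = 0.0213) and ran from -1.87 to -1.54 with 1 library left out, with adjusted p of 0.0984 and 0.0901 without WT replicate 2 and WT replicate 3. Beside it, 4 of 6 tested fat cell markers fell (66.7%, beside 11.5% of all tested genes), Adipoq, Cfd, Fabp4 and Retn. The summed level of the 8 fat cell markers was 15.3, 17.8 and 40.2 CPM in STAT6-/- against 58.1, 96.5 and 295 CPM in WT. Adipoq, the adiponectin gene that defines fat cells, stood at 0.0933, 0.0522 and 0.793 CPM against 2.07, 6.70 and 23.8 CPM. The part of fat cells in the S100b result was not tested.

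Sox10, the transcription factor that defines the neural crest glial lineage, stood at 2.52, 1.25 and 2.70 CPM in STAT6-/- and 1.06, 1.68 and 1.42 CPM in WT. The groups overlapped through STAT6-/- replicate 2, and the log2 fold change of Sox10 was 0.64 (95% interval -0.34 to 1.61; edgeR adjusted p = 0.284). Erbb3, the neuregulin receptor of Schwann cells and glia, is also known in the gut epithelium and was by far the most abundant member. It stood at 108, 238 and 262 CPM against 242, 229 and 220 CPM, and its log2 fold change was -0.18 (-0.94 to 0.57). The low library for Erbb3 was STAT6-/- replicate 1, which was also the lowest for the summed epithelial markers (27956 CPM). It was the lowest too for the summed smooth muscle, fat cell, enteroendocrine and interstitial cell of Cajal markers (2858, 15.3, 268 and 349 CPM). Erbb3 lies 0.907 Mb from Stat6 on chromosome 10 (128567523 to 128589635).

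The mean log2 CPM of the 4 glial genes minus that of the 20 tested neuronal genes was 0.34, 0.47 and 0.32 in STAT6-/- and 0.90, 0.83 and 0.63 in WT. That separation rested on Erbb3: without it the difference was -0.95, -1.38 and -1.22 against -0.88, -0.81 and -1.12, and the groups overlapped. The median log2 fold change was 0.71 over the 20 tested neuronal members and 0.23 over the 4 glial members, or 0.64 over the 3 without Erbb3. With 1 library left out the neuronal median ran from 0.28 (without STAT6-/- replicate 3) to 1.02 (without STAT6-/- replicate 2), and the glial median from 0.065 (without STAT6-/- replicate 3) to 0.35 (without STAT6-/- replicate 1). With log2 FPKM plus 1 these medians were 0.38 and 0.025.

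**Figure D4:**
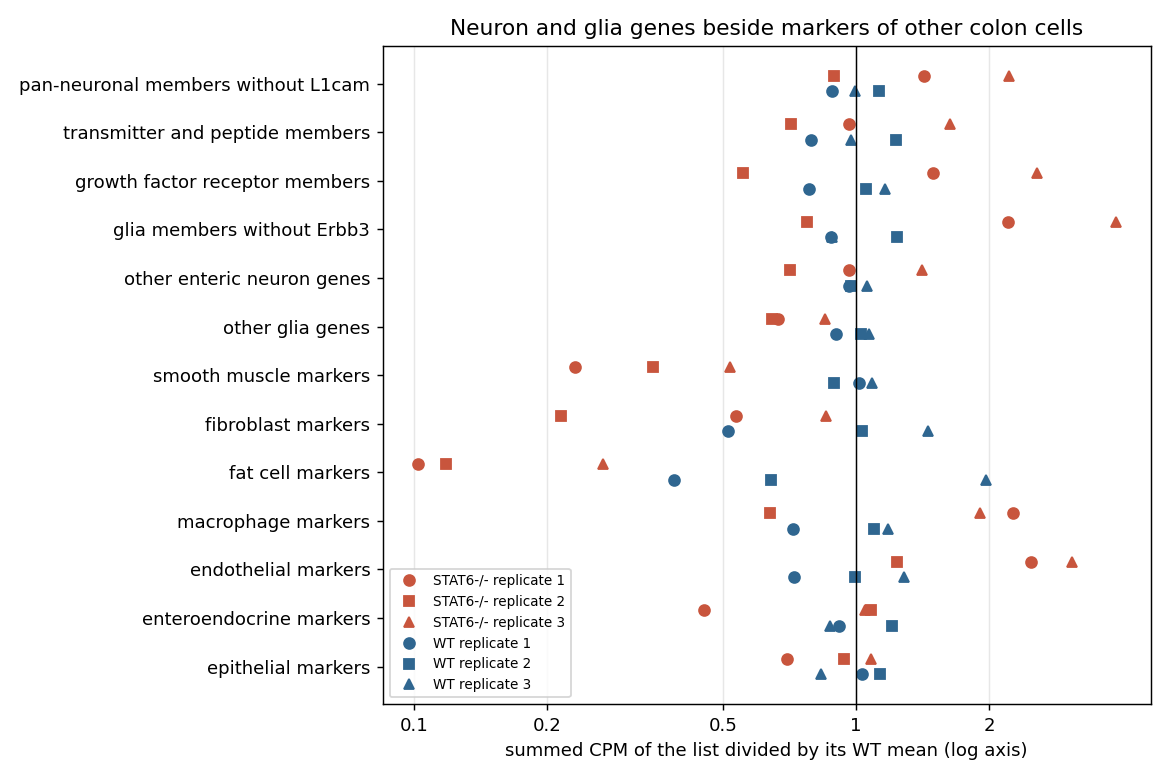
Summed CPM of each list of genes in each library, divided by the mean of the 3 WT libraries, on a log axis, with STAT6-/- libraries in red and WT in blue. For the neuronal members and for the glial members without Erbb3, STAT6-/- replicate 2 is the lowest of the STAT6-/- libraries. The 3 STAT6-/- libraries lie below all WT libraries for the other glia genes and for smooth muscle and fat cell markers. The sum of the other glia genes includes Cryab and Aspa, which muscle or fat cells are also known to make.

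Other genes of enteric neurons and glia, a list of names that the 30 do not hold, were read in the same fit. Of 25 tested neuronal genes 2 rose and none fell, with a median log2 fold change of 0.49. The share that rose, 8.00%, was below the 11.4% of all tested genes. Chrnb4, a nicotinic receptor subunit of autonomic ganglia, stood at 3.73, 2.35 and 3.07 CPM in STAT6-/- and 1.06, 1.30 and 1.08 CPM in WT (log2 fold change 1.41 ± 0.34, edgeR adjusted p = 0.0288). Dbh, the enzyme that makes noradrenaline, stood at 4.29, 0.835 and 3.70 CPM against 0.296, 0.745 and 0.397 CPM (2.61 ± 0.70, adjusted p = 0.0391). Syn1, a synaptic vesicle protein, had a log2 fold change of 1.54 (edgeR adjusted p = 0.0660). Map1b, a microtubule protein with the highest CPM of that list over all 6 libraries but below Thy1 in STAT6-/-, stood at 18.0, 25.7 and 40.2 CPM against 53.4, 49.6 and 42.1 CPM. The groups of Map1b did not overlap, but its log2 fold change of -0.79 did not pass (edgeR adjusted p = 0.0879). Of the 25 tested genes 5 parted upward and 1, Map1b, downward, while 22% and 24.5% of all tested genes did.

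Of 19 tested further glial genes none rose and 3 fell (15.8%, beside 11.5% of all tested genes), with a median log2 fold change of -0.04 (edgeR; 1 was higher and 5 were lower at an unadjusted p under 0.05). Cryab, a small heat shock protein that muscle is also known to make, fell from 31.6 ± 2.58 to 15.5 ± 1.26 CPM (mean ± SD, n = 3; log2 fold change -1.03, edgeR adjusted p = 0.0118). Ncam1, a neural adhesion protein, fell from 15.6 ± 4.96 to 8.00 ± 0.830 CPM (-0.97, adjusted p = 0.0451). Aspa, an enzyme known from oligodendrocytes and fat cells, stood at 10.6, 10.5 and 11.9 CPM in WT and fell to 2.85, 6.06 and 2.27 CPM (-1.57, adjusted p = 0.0327). Mbp, which had the highest CPM of that list over all 6 libraries but was below Entpd2 in WT, had a log2 fold change of 0.22 ± 0.15. The 20 genes of that list summed to 129, 125 and 165 CPM in STAT6-/- and 174, 199 and 207 CPM in WT, lower without overlap. That sum includes Aspa and Cryab, the latter at 14.9, 14.6 and 16.9 CPM in STAT6-/- and 32.2, 28.9 and 33.9 CPM in WT. Whether the groups part without these 2 genes is not given here. Of the 19 tested genes 9 had a positive and 10 a negative sign.

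Smooth muscle markers, whose layer holds the myenteric plexus, fell. In the STAT6-/- colons 10 of 13 fell (76.9%, beside 11.5% of all tested genes) and none rose, with a median log2 fold change of -1.28. Their summed level was 2858, 4295 and 6433 CPM against 12560, 11058 and 13473 CPM in WT. Tagln, the most abundant, fell from 3052 ± 227 to 835 ± 324 CPM (edgeR adjusted p = 0.0151). The pan-neuronal members other than L1cam summed to 63.4, 39.6 and 98.5 CPM in STAT6-/- and 39.1, 49.9 and 44.0 CPM in WT. Per 1000 CPM of muscle markers, that sum was 22.2, 9.21 and 15.3 CPM in STAT6-/- and 3.11, 4.51 and 3.27 CPM in WT. The groups parted for this ratio and for the muscle sum in its divisor, while those of the neuronal sum overlapped. How much of the muscle layer each piece of colon held is not given in the sources used here, and its part in these levels was not tested.

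Of the other cell types, 3 of 8 endothelial markers rose (37.5%), Plvap, Vwf and Flt1, while 2 of the 8 had a negative sign. Of 9 fibroblast markers 3 fell (33.3%), Lum, Dpt and Pi16, while 2 of the 9 had a positive sign. Of all tested genes 11.4% were higher and 11.5% lower. None of the 10 macrophage markers passed by edgeR (3 were higher at an unadjusted p under 0.05). All 10 had a positive sign, with a median log2 fold change of 0.69, beside 0.71 over the 20 tested neuronal members. The macrophage markers summed to 1359, 382 and 1146 CPM in STAT6-/- and 431, 659 and 706 CPM in WT. Their lowest STAT6-/- library, replicate 2, was also that of Nos1, Ret and Gfap. The endothelial sum was 169, 83.9 and 209 CPM against 49.0, 67.3 and 87.0 CPM. Of 13 tested enteroendocrine markers, cells that share Tac1, Scg3 and Uchl1 with neurons, Gcg and Cck rose (15.4%) and Insl5 fell (7.69%). Of 12 epithelial markers Krt20 and Vil1 rose (16.7%) and Car1 fell (8.33%). The enteroendocrine and epithelial shares were near those of all tested genes. None of 6 markers of interstitial cells of Cajal, the pacemaker cells of the muscle, passed by edgeR (0 higher and 1 lower at an unadjusted p under 0.05). None of 7 tested mast cell markers passed by edgeR either (0 higher and 1 lower at that unadjusted p), with Kit highest in CPM in both genotypes. Col3a1, Lyz2 and Lypd8 had the highest CPM of the fibroblast, macrophage and epithelial lists in both genotypes. Over all 6 libraries Thbs4, Plvap and Pyy led the Cajal cell, endothelial and enteroendocrine lists, but Ano1 and Tek led the Cajal cell and endothelial lists in WT and Chgb the enteroendocrine list in STAT6-/-. The part of these cells in the members' values was not tested.

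**Figure D5:**
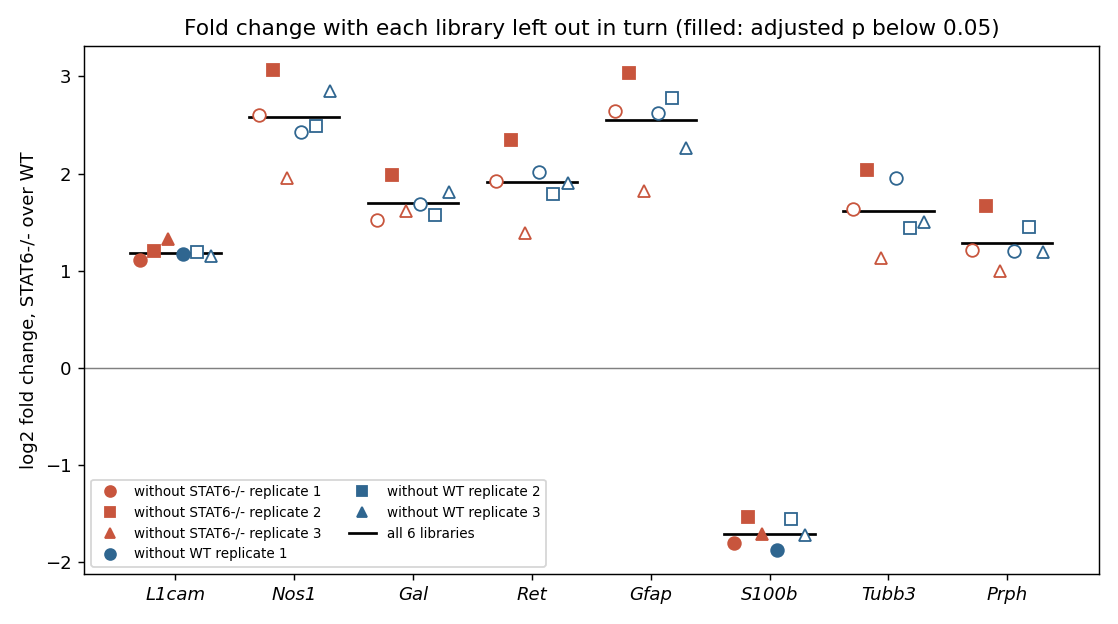
Log2 fold change of STAT6-/- over WT with each library left out in turn, for the 6 genes that passed and for Tubb3 and Prph, with the value from all 6 libraries as a line. Filled symbols have an edgeR adjusted p below 0.05: L1cam and S100b keep it in 4 of 6 fits each, and the other genes only without STAT6-/- replicate 2.

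Levels between genes were compared per transcript length, in the deposited FPKM (fragments scaled to transcript length and library size). In WT, Erbb3 was highest at 55.4 ± 3.30 FPKM (mean ± SD, n = 3), then Tac1 at 27.9 ± 1.62 and Vip at 17.5 ± 8.36. In that order each was above the next without overlap between libraries. Below them came Uchl1 (6.10 ± 0.326), L1cam (5.94 ± 0.207), Stmn2 (5.23 ± 1.64) and Ednrb (4.22 ± 1.38), whose libraries overlapped from 1 gene to the next. In all, 3 members stood at 10 FPKM or more, 14 between 1 and 10 and 13 below 1, and 24 of the 29 neighbours in the order overlapped. Nos1 (0.197 ± 0.0723) and Chat (0.0300 ± 0.0265) closed the order in WT. In STAT6-/- L1cam stood at 14.1 ± 2.96 FPKM, Gfap at 3.79 ± 2.87, Ret at 1.49 ± 0.949 and Nos1 at 1.23 ± 0.884.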

How the data were processed

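Colon RNA of 3 STAT6-/- and 3 WT samples was sequenced, 1 library per sample. The authors deposited, per the file headers, an expected count (estimated reads, not normalized between libraries) and an FPKM value (scaled to transcript length and mapped fragments) for each RefSeq transcript. The submitters' processing notes name Bowtie2 2.2.5, RSEM 1.2.12 and mm10. The lowest listed FPKM was 0.01, with 0 for a transcript that a library does not list. Sums of expected counts per gene were rounded. Of 28238 transcripts, 27986 were named from the RefSeq table of GRCm38.p6 and 149 from GENCODE M21, and 103 (0.167% of counts) kept their own entry.

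Genotypes were compared across all 15066 genes that passed filterByExpr (about 0.546 CPM in 3 libraries) in R 4.3.3 with the quasi-likelihood test of edgeR 4.0.16 (TMM factors, robust estimation), with Benjamini-Hochberg adjustment over all of them and a threshold of 0.05. "Rose" and "fell" are used of genes that passed. SE is the log2 fold change over the square root of F. Of the tested members, 26 passed the filter level in all 6 libraries and none in 1 group only. Mean log2 CPM used a prior count of 2. The exact permutation p for Stat6 (two-sided) was 0.1, which is the lowest that 3 against 3 allows.

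The members and gene lists were chosen with earlier results of these data known. All members are named. Of the neuron, glia and ligand lists, the called genes, the highest in mean CPM over 6 libraries and the 3 smallest p are named. Gdnf and Artn of the ligand list were added outside that rule. Of other lists, the highest in CPM and the called genes where 5 or fewer were called are named. Alternatives were RLE, library size and upper quartile scaling, other filters, DESeq2 1.42.0, limma 3.58.1 (voom, or log2 FPKM plus 1 or 0.1), no robust estimation, a replicate block and each library left out. Replicates of a genotype differed by far more than sampling noise. The STAT6-/- libraries differed more among themselves than the WT libraries, with rank correlations of 0.940 to 0.953 against 0.976 to 0.990. The edgeR fit used a shared spread per gene for both genotypes. 1 gene of the glial list is not reported here by name. The fit was tested on simulated data. Figures used matplotlib 3.10.9.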

Additional observations from a re-analysis of the deposited data

How the results depend on the processing

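Counts of members higher and lower were 5 and 1 with all 6 libraries. The number higher was 2 in each of 3 fits (limma-voom and log2 FPKM with 1 or 0.1 added, where 21.8%, 20.2% and 21.3% of all genes passed), and ranged from 0 to 9 with each library left out, while the number lower ranged from 0 to 1. Replicate numbers are shared between genotypes. Deviations of same-numbered libraries correlated at 0.02, 0.04 and 0.13, the last being the highest of all pairs. STAT6-/- replicate 2 correlated slightly more with WT replicate 1 (0.05) than with its own number. With 3 libraries per genotype, these values cannot settle whether same-numbered libraries were paired. With the replicate block 3 members were higher and 0 lower (17.7% of all genes passed), and Ret, Gfap and S100b had adjusted p of 0.0617, 0.122 and 0.0511. Over all genes 1718 were higher and 1731 lower. With DESeq2 2713 were higher, and with each library left out the counts ranged from 12 to 2750 higher and from 6 to 2440 lower. Stat6 had a log2 fold change from -1.06 to -0.85 with each library left out, and lost its call without WT replicate 2 or 3 (adjusted p = 0.0725 and 0.0721). The median of the glial members was 0.64 without Erbb3 against 0.23 with it.

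Of 475 values of single members under 17 other settings, 419 kept direction and side of the threshold, 37 were no longer past it, 6 were newly past it and 13 reversed, all 13 by leaving out a library and none past the threshold. With each library left out, the log2 fold change ran from -0.34 to 0.062 for Stmn2, from -0.034 to 0.59 for Scg3, from -0.61 to 0.29 for Vip, from -0.27 to 0.69 for Npy, from -0.18 to 0.67 for Grp, from -0.68 to 0.31 for Gfra1, from -0.30 to 0.95 for Ednrb and from -0.36 to 0.15 for Erbb3. The cause of these changes was not tested. Chat and Phox2a could not be tested at this depth, and S100b was called on 12 to 52 counts per library.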

Other observations

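The genes named here were chosen after their values were seen. Slc18a3, which loads acetylcholine into vesicles, had 45, 7 and 31 counts in STAT6-/- replicates 1, 2 and 3 and 4, 0 and 3 counts in WT replicates 1, 2 and 3, and was not tested. Slc5a7, the choline transporter of these neurons, had 25, 6 and 42 counts against 14, 4 and 13, and did not pass (edgeR adjusted p = 0.345). Chat, Slc18a3 and Slc5a7 shared the order of Nos1, Ret and Gfap in placing replicate 2 lowest among the STAT6-/- libraries.

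Dbh, which completes noradrenaline synthesis, had 92, 16 and 70 counts in STAT6-/- and 5, 12 and 7 in WT, while Th, which starts that synthesis, had 0 counts in every STAT6-/- library and 1, 1 and 0 in WT. Nrg1, the neuregulin best known for glial development, had 63, 6 and 125 counts in STAT6-/- and 5, 9 and 4 in WT and was not tested.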
